A study of Mus musculus with 105 samples.

Results

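The genes described here encode the subunits of the nuclear RNA polymerases and the general transcription factors that bring them to promoters. They were chosen by name alone: all genes named Polr1, Polr2 or Polr3, Gtf2 or Gtf3, or Taf followed by the subunit's letter or number. This gave 74 genes of 26459 gene names in the deposited tables, and 72 of the 74 were in the table of tail lengths, which did not hold Taf7l and Taf9. By role, 8 belonged to polymerase II, 5 were shared by all 3 polymerases, 5 belonged to polymerase I and 10 to polymerase III. A further 8 encode TFIIA, TFIIB, TFIIE and TFIIF, 5 the TFIIH core, 18 the TBP-associated factors (TAFs) of TFIID and the coactivator SAGA, 4 the TAFs of the polymerase I factor SL1, 7 TFIIIA and TFIIIC, and 3 the TFII-I family. The last is Taf15, an RNA-binding protein of the FET family.

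An RNA polymerase is built from many subunits, most of them needed in fixed proportion, and polymerase I makes ribosomal RNA, polymerase II messenger RNA and polymerase III small RNAs such as tRNA. At a polymerase II promoter, TFIID (the TATA-binding protein TBP with its TAFs) and TFIIA bind first, TFIIB and TFIIF bring in the polymerase, and TFIIE and TFIIH open the DNA. The mouse oocyte stops transcription at the end of growth, matures and is fertilised on stored messages, and starts transcription again in the embryo, so in this window the machinery itself can be renewed only by translation of stored mRNA.

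The study followed translation with low-input ribosome profiling, which sequences the mRNA fragments protected by ribosomes (footprints), together with mRNA sequencing and long-read poly(A) tail measurement. The samples used here were 20 single metaphase II oocytes (MII) and 18 single full-grown oocytes (FGO), wild type, with footprints. MII oocytes of Btg4 knockout (KO) and Btg4 heterozygous (Het) females were measured as 3 KO and 3 Het footprint libraries, 2 KO and 2 Het libraries of polyadenylated RNA, and 2 KO libraries and 1 Het library of tail lengths, beside 1 MII and 1 FGO wild-type tail library. BTG4 is an adaptor of the CCR4-NOT deadenylase, which shortens the tails of maternal mRNA during maturation, and the comparison asks which messages depend on it. One protocol is given for every oocyte group, FGO and MII, KO, Het and wild type alike: C57BL/6 females 8 or 5 weeks of age had PMSG (5 IU) and hCG (5 IU) by intraperitoneal injection, and it does not say which group had which age. The labels give neither the animals behind each library nor the deleted part of Btg4. The FGO tail library is labelled SN, a term the labels do not spell out and do not apply to the single FGO.

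Levels are FPKM as deposited, fragments scaled to transcript length and library size, so they are shares of a library, and a change in total mRNA per oocyte cannot be seen in them. In pools of oocytes, fewer oocytes with a message and less of it per oocyte cannot be told apart. Relative depth, read from the steps between low FPKM values and set to 1 for the median FGO, was 0.195 to 0.762 in MII oocytes (median 0.263) and 0.484 to 2.09 in FGO. The 20 MII oocytes together had 34.2% of the depth of the 18 FGO. Members listed above 0 numbered 25 to 56 per MII oocyte (median 36) and 42 to 67 per FGO (median 53), so an absence in MII rests on fewer reads. By Spearman correlation across genes, MII oocytes 2 and 4 were nearer to FGO (medians 0.622 and 0.619) than to the other MII oocytes (0.581 and 0.563), which held for no other of the 38 oocytes, and counts without them are given below. All 10 oocyte markers (such as Zp3, Gdf9 and Nlrp5) were listed at both stages, 8 of them over 2-fold lower in MII. The 15 follicle cell markers summed to 4.27 to 42.5 FPKM in MII oocytes (median 21.0; Fshr, Krt8 and Has2 at 0 throughout) and 1.64 to 145 FPKM in FGO (median 32.2; Has2 at 0). Cyp19a1 was above 0 in 17 of 20 MII oocytes (median 12.8 FPKM) and 9 of 18 FGO (median 0.352 FPKM). Vim was above 0 in 14 of 20 MII oocytes and 15 of 18 FGO. Of the 7 follicle markers averaging at least 1 FPKM over the 38 oocytes, 4 were over 2-fold lower in MII and 1, Cyp19a1, higher (log2 ratio 2.42). The 9 blood markers summed to 0 to 129 FPKM in MII oocytes and 0 to 617 FPKM in FGO, and a hemoglobin gene was listed above 0 in 2 of 20 MII oocytes and 9 of 18 FGO. The part of these cells in the results was not tested, and the counts without the oocytes that list hemoglobin are given beside them. In the Btg4 footprint libraries relative depth was 0.828 to 1.22 in KO and 0.584 to 1.5 in Het, and the follicle markers summed to 32.0 to 111 FPKM in KO and 17.1 to 66.5 FPKM in Het.

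In MII oocytes, compared with FGO, 14 of 28 polymerase genes had footprints over 2-fold lower, while 8 of 18 Taf genes and both TFIIA subunits Gtf2a1 and Gtf2a2 had footprints over 2-fold higher. Of the 74 members, 66 averaged at least 1 FPKM over the 38 oocytes. Of these, 16 were over 2-fold higher in MII and 25 over 2-fold lower on the log2(mean FPKM + 1) scale, while 27.9% of all 8788 genes that passed the same filter were higher and 31.3% lower. Among the 25 lower, 3 (Polr3gl, Polr3g and Taf1d) were at 0 in every MII oocyte. They passed the filter through FGO alone, so they could only be lower. The members' median log2 ratio was -0.32 and that of all genes -0.15. The labels name no animals, so a stage is taken as 1 sample here, with no test. Of the Polr genes 3 were higher, and of the Taf genes 4 were lower. Without MII oocytes 2 and 4, 15 members were higher and 26 lower. Without the oocytes that list hemoglobin, 61 members passed the filter, 18 higher and 20 lower. The median log2 ratio then changed sign, to 0.06 for the members and 0.27 for all 8317 genes that passed. Scaling each oocyte to the median of widely detected genes moved the median log2 ratio of all genes to -1.09. Most of all 9005 genes that passed were thus over 2-fold lower under this scaling. The members' median was -1.23, with 11 of 63 members higher and 35 lower. Of 25 Polr genes 2 were then higher and 20 lower, and of 18 Taf genes 5 were higher and 4 lower.

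**Figure D1:**
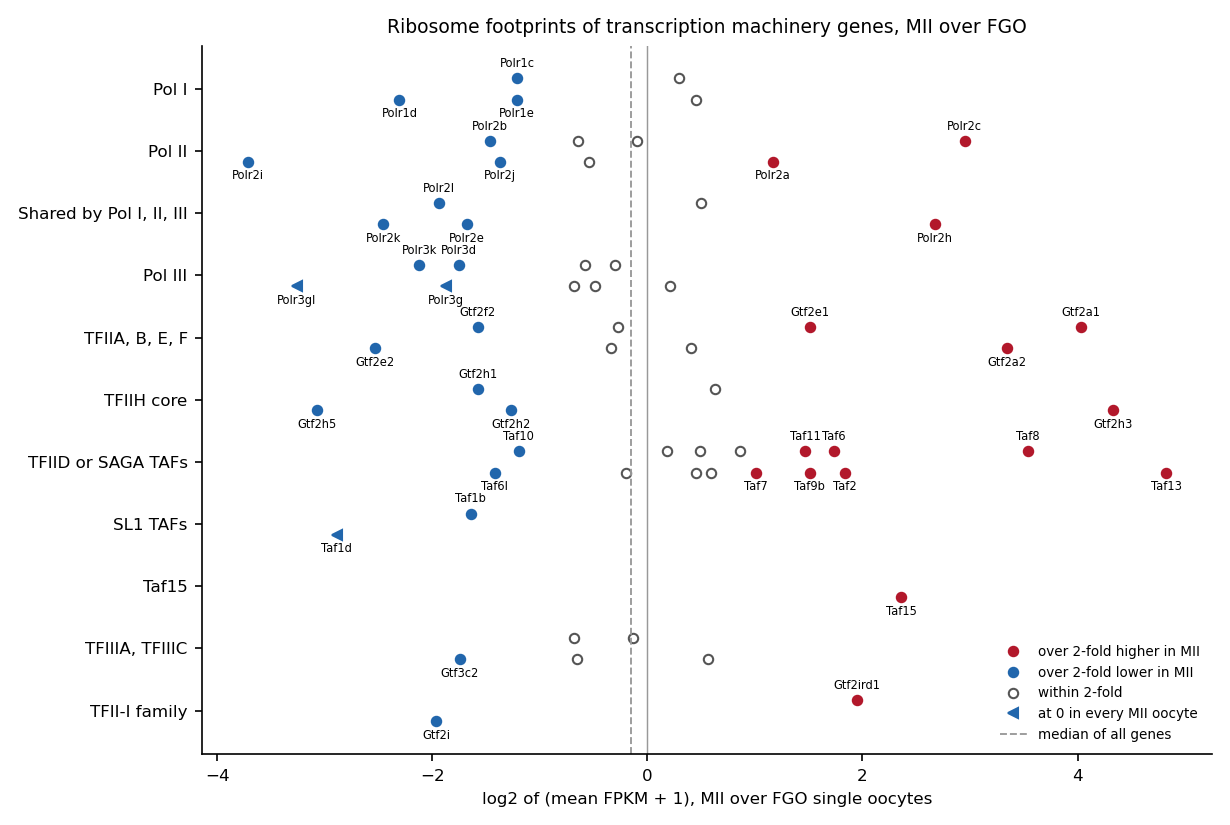
Log2 ratio of (mean footprint FPKM + 1) in 20 MII oocytes over 18 FGO for 65 members averaging at least 1 FPKM, by complex; red is over 2-fold higher in MII, blue over 2-fold lower, triangles are members at 0 in every MII oocyte, and the dashed line is the median of all genes (-0.15). Taf13 (4.82), Gtf2h3 (4.33) and Gtf2a1 (4.03) lie farthest to the right, and most polymerase subunits lie left of the dashed line.

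Polymerase II itself was divided. Polr2c, the RPB3 subunit on which the enzyme is assembled, ran from 150 to 670 FPKM in MII oocytes (median 381) and from 4.09 to 155 FPKM in FGO (median 41.2). The ranges touched only at their edges, with the MII value higher in 99.7% of MII-FGO pairs, and the log2 ratio was 2.95. Polr2j, the RPB11 subunit that pairs with Polr2c, went the other way: it ran from 0 to 615 FPKM in MII oocytes (median 136) and from 136 to 1154 FPKM in FGO (median 513), a log2 ratio of -1.37. Polr2a, the catalytic subunit that carries the carboxy-terminal domain, ran from 1.45 to 20.2 FPKM in MII oocytes (median 5.71) and from 0 to 7.08 FPKM in FGO (median 1.47). It was higher in 82.2% of pairs with a log2 ratio of 1.16. Polr2b, which forms the active site together with Polr2a, was lower: 0 to 16.7 FPKM in MII oocytes (median 2.18) and 0.773 to 44.4 FPKM in FGO (median 8.70), a log2 ratio of -1.47. Members that join in the same enzyme thus had opposite differences between the stages.

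The lowest ratio of any member belonged to Polr2i, the RPB9 subunit involved in transcription fidelity. It was above 0 in 3 of 20 MII oocytes, with a highest value of 26.9 FPKM, and in 17 of 18 FGO, with a median of 33.4 and a highest value of 186 FPKM. That is about 3 reads in all MII oocytes together (exact Poisson 95% interval 0.619 to 8.77) and 170 reads in FGO; such intervals cover counting error only. The stalk subunits Polr2d and Polr2g were within 2-fold, with log2 ratios of -0.10 and -0.54. Polr2d ran from 24.3 to 465 FPKM in MII oocytes (median 112) and from 23.0 to 350 FPKM in FGO (median 125), and the 2 ranges overlapped almost fully. Polr2m, which associates with polymerase II and makes it depend on Mediator, averaged 1.22 ± 3.96 FPKM in 20 MII oocytes and 2.47 ± 5.6 FPKM in 18 FGO (SD over oocytes).

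Of the 5 subunits that all 3 polymerases share, 3 were over 2-fold lower in MII and 1 higher, where 31.3% and 27.9% of all genes were. Polr2l (RPB10) ran from 0 to 1725 FPKM in MII oocytes (median 24.0) and from 165 to 3002 FPKM in FGO (median 1098). Polr2k (RPB12) was above 0 in 8 of 20 MII oocytes, up to 512 FPKM, and in all 18 FGO, from 26.5 to 2225 FPKM with a median of 252. The log2 ratio was -1.94 for Polr2l and -2.46 for Polr2k, and without MII oocytes 2 and 4 it was -2.58 and -2.99. Polr2e (RPB5) had a log2 ratio of -1.68. Polr2h (RPB8) was detected in 6 of 20 MII oocytes, up to 61.0 FPKM, and in 2 of 18 FGO, up to 6.48 FPKM; its log2 ratio of 2.67 rests on about 18 reads in MII oocytes and 4 reads in FGO, and both medians were 0. Polr2f (RPB6) was within 2-fold, with a log2 ratio of 0.50.

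Apart from the shared subunits, none of the 5 polymerase I and 10 polymerase III members was over 2-fold higher in MII, where 27.9% of all genes were. Polymerase I subunits with other names, such as Twistnb (log2 ratio 1.02) and Znrd1 (-2.48), are outside the name rule and this count. Polr1d, the small subunit that polymerases I and III share, was above 0 in 3 of 20 MII oocytes, up to 209 FPKM, and in all 18 FGO, from 5.71 to 347 FPKM with a median of 55.3. Its log2 ratio was -2.31, and -4.96 without MII oocytes 2 and 4, which held 80.7 and 209 FPKM of it. Its partner Polr1c and the polymerase I subunit Polr1e each had a log2 ratio of -1.21, while the catalytic subunits Polr1a and Polr1b were at 0.30 and 0.45. In polymerase III, Polr3k, the RPC11 subunit needed for termination, ran from 0 to 84.4 FPKM in MII oocytes (median 5.95) and from 0 to 440 FPKM in FGO (median 99.4), a log2 ratio of -2.12. Polr3d was at -1.75, and the catalytic subunits Polr3a and Polr3b at -0.58 and -0.68. Polr3c, Polr3e and Polr3f were within 2-fold.

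The general factors of polymerase II differed in both directions. For TFIIA, which holds TBP on DNA, Gtf2a1 ran from 9.93 to 226 FPKM in MII oocytes (median 113) and from 0 to 40.6 FPKM in FGO (median 2.70). Its partner Gtf2a2 ran from 0 to 422 FPKM in MII oocytes (median 38.4) and from 0 to 71.0 FPKM in FGO (median 0). Both TFIIA subunits were thus higher in MII, with log2 ratios of 4.03 and 3.35. In TFIIE, Gtf2e2 was above 0 in 6 of 20 MII oocytes, up to 30.1 FPKM, and in all 18 FGO, from 3.0 to 84.8 FPKM with a median of 17.4. Its log2 ratio was -2.54, whereas its partner Gtf2e1 was at 1.52, with a median of 3.69 FPKM in MII oocytes and 0 in FGO. Gtf2b, the single polypeptide TFIIB, was present in every oocyte, from 38.0 to 263 FPKM in MII oocytes (median 99.5) and from 14.6 to 252 FPKM in FGO (median 68.5), a log2 ratio of 0.41. TFIIF was split less, with Gtf2f2 at -1.58 and Gtf2f1 at -0.34.

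Within the TFIIH core, the ring of subunits around the DNA helicases, Gtf2h3 and Gtf2h5 lay at opposite ends. Gtf2h3 (p34) ran from 0 to 123.5 FPKM in MII oocytes (median 19.6) and from 0 to 2.495 FPKM in FGO (median 0), which is about 114 reads in MII oocytes and 5 in FGO. Gtf2h5 (the p8 subunit, mutated in a form of trichothiodystrophy) was above 0 in 3 of 20 MII oocytes, up to 457 FPKM, and in all 18 FGO, from 27.1 to 887 FPKM with a median of 292. MII oocytes 2 and 4 held 226 and 457 FPKM of Gtf2h5, and the log2 ratio of -3.07 became -5.73 without them. Gtf2h1 and Gtf2h2 were at -1.57 and -1.27, and Gtf2h4 at 0.63.

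**Figure D2:**
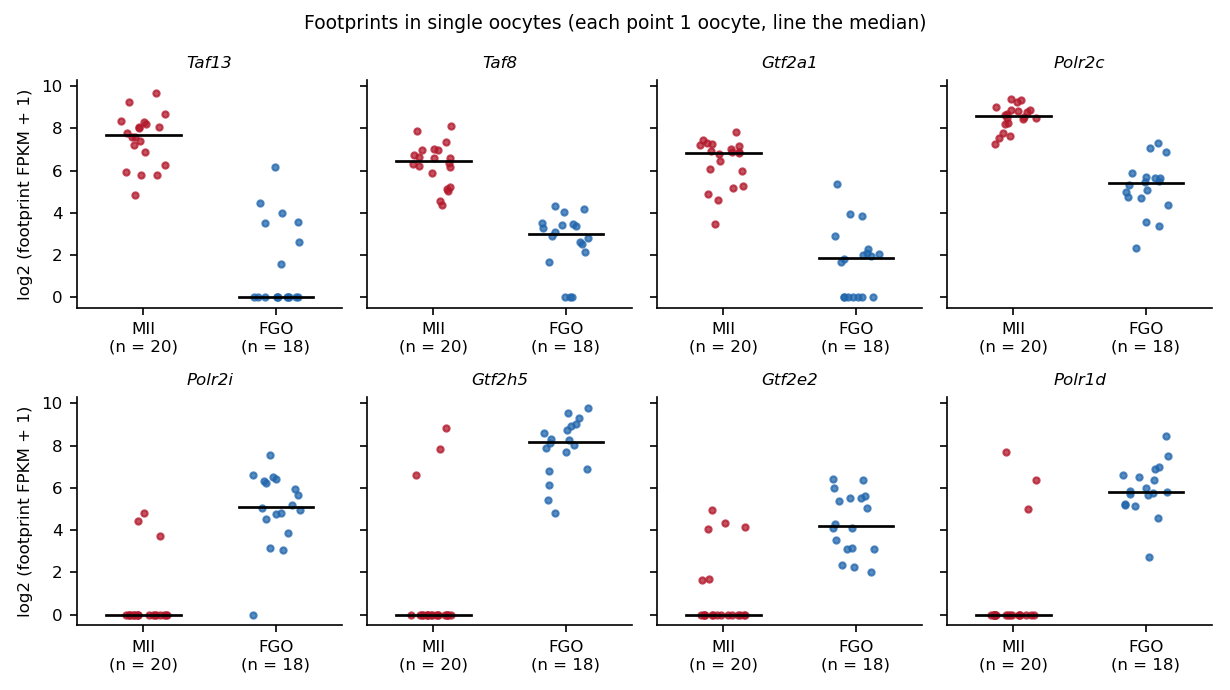
Footprint level, log2(FPKM + 1), of 8 members in each of 20 MII oocytes and 18 FGO; each point is 1 oocyte and the line is the median. Taf8 does not overlap between the stages, Taf13, Gtf2a1 and Polr2c overlap in a few oocytes, and Polr2i, Gtf2h5, Gtf2e2 and Polr1d are at 0 in most MII oocytes.

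Of the 15 TAFs of TFIID and SAGA that passed the filter, 7 were over 2-fold higher and 2 lower. These are 46.7% and 13.3%, against 27.9% and 31.3% of all genes. Taf13, a histone-fold subunit, ran from 27.4 to 820 FPKM in MII oocytes (median 204) and from 0 to 72.0 FPKM in FGO (median 0), with a log2 ratio of 4.82 and about 765 reads in MII oocytes against 60 in FGO. Its histone-fold partner Taf11 was at 1.47. Taf8 ran from 19.5 to 273 FPKM in MII oocytes (median 88.2) and from 0 to 18.9 FPKM in FGO (median 7.11), so the lowest MII oocyte was above the highest FGO. Taf8 was the only member without overlap between the stages; 2.18% of all genes had every MII oocyte above every FGO. Taf10, the histone-fold partner of Taf8, differed in the other direction, with medians of 8.30 FPKM in MII oocytes and 17.6 FPKM in FGO and a log2 ratio of -1.20.

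Taf2, Taf6, Taf9b and Taf7 had log2 ratios of 1.84, 1.73, 1.51 and 1.01. Under median scaling Taf7, Taf9b and Taf11 were no longer over 2-fold higher, at 0.08, 0.43 and 0.26, and neither were Polr2a, at 0.35, and Gtf2e1, at 0.98. The TFIID subunits Taf1, Taf3, Taf4 and Taf5 were within 2-fold. Taf1, which binds the promoter and acetylated histones, was still higher in 88.1% of pairs, with medians of 5.40 FPKM in MII oocytes and 0.777 FPKM in FGO. Taf15 ran from 6.39 to 119 FPKM in MII oocytes (median 29.5) and from 0 to 19.1015 FPKM in FGO (median 5.39), a log2 ratio of 2.36. In SL1, the factor that brings TBP to ribosomal RNA genes, Taf1b was at -1.64, Taf1d was listed at 0 in all MII oocytes and up to 58.3 FPKM in 12 of 18 FGO, and Taf1a was listed at 0 in every single oocyte.

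In the polymerase III factors, Gtf3c2 of TFIIIC was at -1.74, and Gtf3c1, Gtf3c3, Gtf3c6 and TFIIIA (Gtf3a) were within 2-fold. Of the TFII-I family, Gtf2ird1 was at 1.95 and Gtf2i at -1.96, both at low levels: Gtf2ird1 had medians of 2.88 FPKM in MII oocytes and 0 in FGO, and Gtf2i of 0 in MII oocytes and 2.76 FPKM in FGO. The 8 members under the filter were Gtf3c4, Gtf3c5, Gtf2ird2, Taf1a, Taf1c, Taf4b, Taf5l and Taf7l, all below 8 FPKM in every single oocyte.

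Several subunits have a second gene that can take their place, often in germ cells, and the pairs were read side by side in FPKM, which is per length. For TFIIA, the germ-cell gene Gtf2a1l had medians of 13.2 FPKM in MII oocytes and 11.6 FPKM in FGO, while Gtf2a1 had 113 FPKM in MII oocytes and 2.70 FPKM in FGO, so Gtf2a1l was the higher of the pair in FGO and Gtf2a1 in MII oocytes. Taf9b had medians of 138 FPKM in MII oocytes and 33.3 FPKM in FGO, and Taf9 had 13.3 FPKM in MII oocytes and 14.7 FPKM in FGO. The gonadal Taf4b was low at both stages, with means of 0.310 FPKM in MII oocytes and 0.979 FPKM in FGO, below Taf4 with 4.30 FPKM in MII oocytes and 2.88 FPKM in FGO. Taf7l, known from male germ cells, averaged 0.137 FPKM in MII oocytes and 0.438 FPKM in FGO, while Taf7 averaged 60.8 FPKM in MII oocytes and 29.7 FPKM in FGO. The SAGA forms Taf5l and Taf6l were below Taf5 and Taf6 in MII oocytes, with Taf5l listed at 0 in all of them. Both alternative polymerase III subunits, Polr3gl and Polr3g, were listed at 0 in all MII oocytes and above 0 in 6 and 8 of 18 FGO. Polr3g had about 16 reads in FGO, and its 0 reads in MII oocytes allow up to 3.69 (upper bound of the exact Poisson 95% interval). The treatment of reads that fit both genes of a pair is not given in the sources used, so values within a pair are uncertain.

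TBP, which binds TFIID, SL1 and TFIIIB to DNA and is no member by name, was above 0 in 17 of 20 MII oocytes with a median of 7.67 FPKM and in 5 of 18 FGO with a median of 0 (log2 ratio 2.42). Tbpl2, the TBP of growing oocytes, was within 2-fold (0.33), and Tbpl1 was seen in 3 MII oocytes and no FGO. Further genes of initiation (with some polymerase subunits under other names), Mediator, elongation and polymerase assembly were read as well. Of the 91 that passed the filter, 24 were over 2-fold higher and 23 lower, with a median log2 ratio of -0.27. These counts are 26.4% and 25.3% of the 91, against 27.9% and 31.3% of all genes. Mediator had 11 of 28 higher (39.3%) and 7 lower (25.0%).

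In the KO libraries Btg4 itself was at 1754 and 2345 FPKM of mRNA, against 3293 and 4774 FPKM in Het, and at 1148, 971 and 907 FPKM of footprints, against 7009, 6346 and 6134 FPKM in Het. The footprints fell by 2.69 ± 0.23 (log2, SE; adjusted p = 0.00654), and the mRNA difference of -0.97 ± 0.35 did not pass the threshold (adjusted p = 0.0889). Tests were made with limma on log2(FPKM + 1) with Benjamini-Hochberg adjustment over all genes, the threshold was an adjusted p of 0.05, and ± after a log2 difference is its SE.

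In KO mRNA, 14 of the 63 members tested rose and none fell. The rule called 18.9% of all 8865 genes higher and 0.62% lower, and 22.2% of the members higher, close to the rate of all genes. At an unadjusted p of 0.05, 22 members were higher and 1 lower, against 27.6% and 5.78% of all genes. Every KO library lay above every Het library for 27 members and below for 14, which happened for 38.9% and 22% of all genes. The median log2 difference was 0.36 for the members and 0.14 for all genes. Median scaling of the libraries moved the median of all genes to -0.21, and 9 members then rose and none fell. With the library number as a block, a pairing that no label names, 3033 of all genes rose and 1553 fell. Some members fell under that block, among them Polr2c (adjusted p = 0.0124 in limma) and Taf13 (0.0457). The 14 were spread over the complexes, with 6 Polr genes, 4 Gtf2 genes, Gtf3a and 3 Taf genes.

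**Figure D3:**
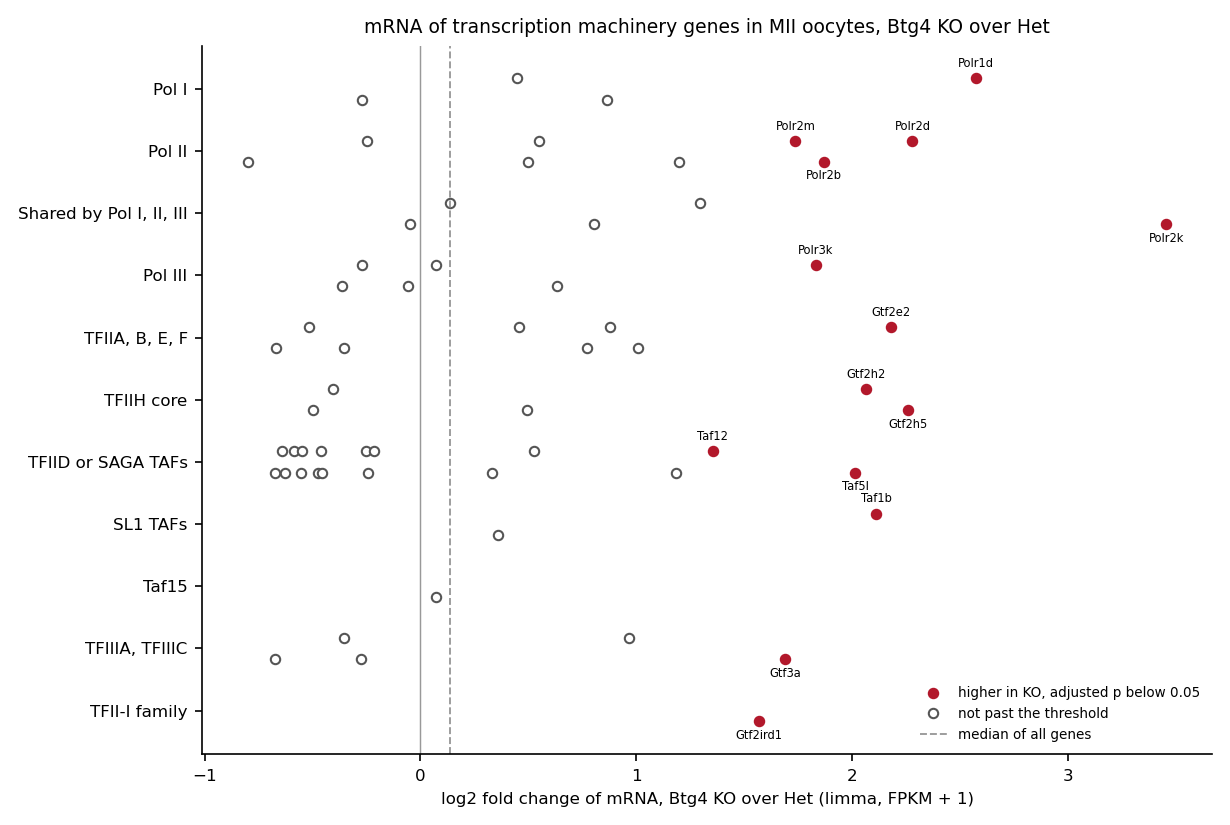
Log2 difference of mRNA, Btg4 KO over Het (limma on log2(FPKM + 1), 2 KO and 2 Het libraries), for 62 of the members tested, by complex; red points passed an adjusted p of 0.05 and the dashed line is the median of all genes (0.14). The 14 red points run from Taf12 (1.35) to Polr2k (3.45), and most TFIID TAFs lie left of 0.

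Among the polymerase subunits, Polr2k had 151 and 232 FPKM in KO, against 13.0 and 20.0 FPKM in Het, a rise of 3.45 ± 0.36 (adjusted p = 0.000873). Polr1d had 175 and 181 FPKM in KO, against 30.8 and 27.3 FPKM in Het, a rise of 2.57 ± 0.29 (adjusted p = 0.000969). Polr2d, the RPB4 stalk subunit and the most abundant of the 14, had 739 and 1087 FPKM in KO, against 124 and 273 FPKM in Het (2.28 ± 0.42, adjusted p = 0.00741). Both KO libraries lay above both Het libraries in all 3 cases. Polr2d did not pass under median scaling or with no filter on low values (adjusted p up to 0.0834 in limma). Polr2b had 46.1 and 29.1 FPKM in KO, against 8.61 and 10.0 FPKM in Het (1.87 ± 0.36, adjusted p = 0.00859). Polr3k had 31.3 and 47.8 FPKM in KO, against 8.41 and 12.2 FPKM in Het (1.83 ± 0.37, adjusted p = 0.0105). Polr2m had 6.86 and 4.90 FPKM in KO, against 1.62 and 0.590 FPKM in Het (1.74 ± 0.38, adjusted p = 0.0151). Polr2b no longer passed without KO library 1 (adjusted p = 0.0523), and Polr3k without KO library 2 (adjusted p = 0.0691).

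Of the initiation factors, Gtf2h5 had 65.9 and 105 FPKM in KO, against 18.1 and 15.2 FPKM in Het (2.26 ± 0.34, adjusted p = 0.00332). Gtf2e2 had 80.6 and 81.8 FPKM in KO, against 15.0 and 19.6 FPKM in Het (2.18 ± 0.31, adjusted p = 0.00261). Gtf2h2, the p44 subunit that activates a TFIIH helicase, had 78.2 and 110 FPKM in KO, against 15.5 and 29.5 FPKM in Het (2.06 ± 0.38, adjusted p = 0.00774). For all 3, both KO libraries were above both Het libraries by more than the libraries of a genotype differed. Gtf3a had 26.0 and 29.0 FPKM in KO, against 7.68 and 8.00 FPKM in Het (1.69 ± 0.32, adjusted p = 0.00902; 0.0593 without KO library 2). Gtf2ird1 had 29.8 and 27.1 FPKM in KO, against 6.83 and 11.5 FPKM in Het (1.57 ± 0.36, adjusted p = 0.0186). Gtf2ird1 did not pass without KO library 1 or Het library 1 (adjusted p = 0.0632 and 0.0640).

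Of the TAFs, Taf1b had 55.6 and 51.6 FPKM in KO, against 9.97 and 13.5 FPKM in Het (2.11 ± 0.32, adjusted p = 0.00339). Taf5l, a SAGA subunit, had 13.0 and 8.15 FPKM in KO, against 2.05 and 1.58 FPKM in Het (2.01 ± 0.38, adjusted p = 0.00805). Taf12, the partner of Taf4 in TFIID and also a SAGA subunit, had 61.5 and 115 FPKM in KO, against 27.7 and 37.7 FPKM in Het (1.35 ± 0.38, adjusted p = 0.0385). The Taf12 call was lost without KO library 2 (adjusted p = 0.339) and without Het library 1 (0.0608). Of 17 TAFs of TFIID and SAGA tested, Taf5l and Taf12 passed and the median was -0.46. Taf13 had 151 and 170 FPKM in KO, against 190 and 294 FPKM in Het, and Taf8 had 91.7 and 114 FPKM in KO, against 90.0 and 163 FPKM in Het, without a call. Polr2c had 522 and 448 FPKM in KO, against 827 and 857 FPKM in Het, lowest in log2 difference of the members tested (-0.80 ± 0.29, adjusted p = 0.0923).

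The genes that gained mRNA in the KO were set beside the stage difference, which comes from other oocytes. Of the members over 2-fold lower in MII footprints and tested in mRNA, 8 of 22 rose in KO; of those over 2-fold higher, 1 of 16, Gtf2ird1; and of those between, 4 of 23. Among all genes the shares were 38.9%, 3.6% and 17.5%, close to the members' own shares. Taf5l, which also rose, was under the filter in single oocytes.

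Footprints rose in KO for 5 of 64 members tested, Polr2b, Gtf2e2, Gtf2h2, Gtf2b and Polr3gl, and fell for none. The rule called 3.21% of all 8526 genes higher and 0.328% lower. At an unadjusted p of 0.05, 14 members were higher and 6 lower, against 13.5% and 4.62% of all genes. Every KO library lay above every Het library for 14 members and below for 7, against 16.8% and 7.69% of all genes. The median log2 difference was 0.29 for the members and 0.27 for all genes.

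Polr2b had 179, 248 and 212 FPKM of footprints in KO, against 8.54, 11.9 and 8.78 FPKM in Het. The lowest KO library was many times the highest Het library, a rise of 4.32 ± 0.37 (adjusted p = 0.00654). Gtf2e2 had 50.7, 66.98 and 52.8 FPKM in KO, against 0, 0 and 4.80 FPKM in Het (5.00 ± 0.80, adjusted p = 0.0269). Gtf2h2 had 41.4, 60.2 and 48.6 FPKM in KO, against 3.83, 0 and 0 FPKM in Het (4.90 ± 0.76, adjusted p = 0.0251). With Het libraries at 0 the size of both differences depends on the pseudocount: at 0.1 it was 7.27 for Gtf2e2 and 7.19 for Gtf2h2, and neither passed (adjusted p = 0.0792 and 0.0758 in limma). These 3 also rose in mRNA, so their footprints and their mRNA rose together. Gtf2b had 1076, 1373 and 1175 FPKM in KO, against 420, 282 and 291 FPKM in Het (1.88 ± 0.29, adjusted p = 0.0241), with mRNA of 699 and 670 FPKM in KO and 331 and 420 FPKM in Het that did not pass (adjusted p = 0.0741). Polr3gl had 18.8, 13.3 and 9.57 FPKM in KO and was listed at 0 in all 3 Het libraries (adjusted p = 0.0255, and 0.0545 with the library number as a block). It passed the filter through KO alone, and its difference was 3.85, or 7.07 at a pseudocount of 0.1. The call was kept under 3 of 12 alternative settings. The mRNA of Polr3gl was 0.729 and 1.26 FPKM in KO and 0.954 and 0.775 FPKM in Het.

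These footprint calls rest on all 3 KO libraries. Without KO library 1, 2 or 3 no member passed, and none of all genes did; without Het library 1 Polr2b, Gtf2h2, Gtf2b, Polr3gl, Gtf2h5 and Polr3f passed, without Het library 2 Polr2b passed alone, and without Het library 3 Polr2b and Gtf2e2. The KO and Het libraries numbered 2 stood apart from the others in several members, with Polr2c at 69.9 FPKM in KO and 43.6 FPKM in Het, where the other libraries held 820 and 1069 FPKM in KO and 1383 and 1371 FPKM in Het. Without both, no member passed, and Polr2b had an adjusted p of 0.0783 and Gtf2b of 0.146.

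**Figure D4:**
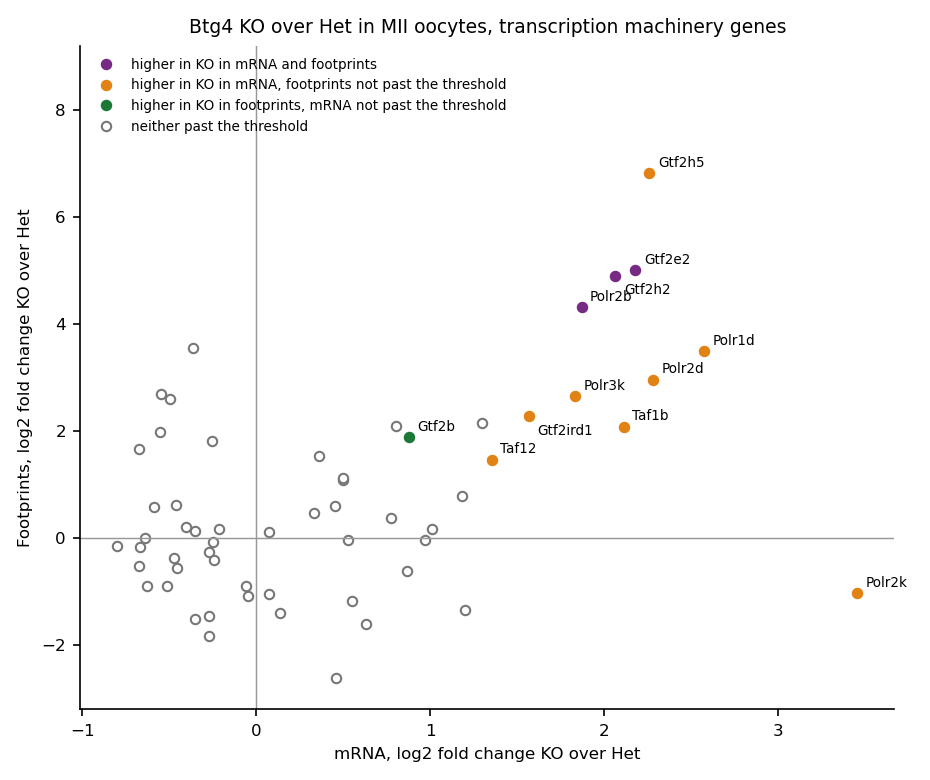
Log2 difference KO over Het of mRNA (2 and 2 libraries) and of footprints (3 and 3 libraries) for members tested in both; filled points passed an adjusted p of 0.05 in both (purple), in mRNA (orange) or in footprints (green). Polr2b, Gtf2e2 and Gtf2h2 rose in both, and Polr2k, at 3.45 in mRNA, is at -1.03 in footprints with an SE of 2.80.

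Several members near the threshold had KO and Het libraries that did not overlap, as did many of all genes (16.8% with KO higher, 7.69% with KO lower). Gtf2h5 had 489, 605 and 166 FPKM of footprints in KO, against 33.7, 0 and 0 FPKM in Het (adjusted p = 0.0530, and 0.0368 with the library number as a block). Taf7, which regulates the activity of Taf1, had 626, 849 and 473 FPKM in KO, against 262, 178 and 126 FPKM in Het (1.80 ± 0.39, adjusted p = 0.0597, and 0.0410 with the block). Its mRNA was 69.3 and 75.5 FPKM in KO and 80.2 and 93.1 FPKM in Het. Polr2g had 65.3, 71.8 and 73.8 FPKM of footprints in KO, against 160, 181 and 144 FPKM in Het (-1.19 ± 0.31, adjusted p = 0.0981, and 0.0476 under median scaling). Polr2k, Polr1d and Polr3k, which rose in mRNA, did not pass in footprints: Polr2k held 378, 0 and 20.3 FPKM in KO and 201, 0 and 339 FPKM in Het.

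Translational efficiency, the change of footprints beyond that of mRNA, was read from the genotype-by-assay interaction in 1 limma fit of the 10 libraries, with 1 spread assumed for both. No member passed among 59 tested; 0.853% of all 7382 genes were higher in KO and 0.447% lower. At an unadjusted p of 0.05, 10 members were higher and 3 lower, against 8.48% and 5.53% of all genes. The lowest adjusted p was that of Polr2b, 0.0675, with a difference of 2.45 ± 0.53, and with only genes of at least 5 FPKM in both assays it was 0.0447. Without Het footprint library 1, Gtf2h2, Gtf2h5 and Polr3f passed, and without Het footprint library 3, Gtf2e2 did; no other left-out library gave a member. Without any 1 of the mRNA libraries no gene of all passed.

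Among the related genes outside the name rule, 23 of 89 rose in mRNA and 4 of 85 in footprints, and none fell in either. These are 25.8% and 4.71%, against 18.9% and 3.21% of all genes. In translational efficiency 1 of 81 was higher and 1 lower. The kinase of TFIIH, which phosphorylates the polymerase II tail, was among them. Cdk7 had 258, 316 and 293 FPKM of footprints in KO, against 15.8, 8.87 and 7.74 FPKM in Het (4.67 ± 0.40, adjusted p = 0.00654), and its mRNA rose by 2.02 ± 0.34 (adjusted p = 0.00538). Its assembly factor Mnat1 had 88.1, 151 and 128 FPKM in KO, against 3.47, 0 and 0 FPKM in Het (6.19 ± 0.72, adjusted p = 0.0140), with an mRNA difference of 0.95 ± 0.33 that did not pass. Mnat1 was the gene higher in translational efficiency (5.24 ± 0.96, adjusted p = 0.0430). The gene lower was Med28 of Mediator (-3.22 ± 0.56, adjusted p = 0.0386), with 75.4, 43.6 and 74.5 FPKM of footprints in KO, against 106, 178 and 107 FPKM in Het. Tbp had 138, 173 and 222 FPKM of footprints in KO, against 27.0, 13.3 and 21.7 FPKM in Het (3.07 ± 0.42, adjusted p = 0.0188) and rose in mRNA by 1.65 ± 0.30 (adjusted p = 0.00754). Med19 was the fourth to rise in footprints. In mRNA, 10 of 22 genes of the TBP and initiation list rose (45.5%, against 18.9% of all genes). This list also holds polymerase subunits with other names, such as Crcp and Znrd1. The rises were led by Drap1 (3.76 ± 0.38), Snapc5 (3.06 ± 0.33), Ccnh (2.30 ± 0.36), Crcp (2.19 ± 0.34) and Ercc3 (2.03 ± 0.39). Of 29 Mediator genes 8 rose (27.6%), led by Med7 (4.14 ± 0.34), Med8 (2.87 ± 0.45), Ccnc (2.34 ± 0.36), Med28 (2.21 ± 0.31) and Med6 (2.04 ± 0.32). Of 26 elongation genes Ell3, Tcea3, Nelfe and Leo1 rose, and of 12 assembly genes Gpn3.

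Poly(A) tail lengths were available for few members outside FGO. A value (above 0, since 0 means none) was given for 6 and 15 of 72 members in the KO libraries, 7 in Het, 2 in wild-type MII and 53 in FGO. The members' shares with a value were above those of all genes in every library (8.33% and 20.8% in KO, 9.72% in Het, 2.78% in wild-type MII and 73.6% in FGO, against 4.21%, 6.87%, 2.90%, 1.11% and 30.8% of all genes in the same order). In FGO the members' tails ran from 31.8 to 92.6 nucleotides with a median of 52.6, and all genes had a median of 54.1. Depth and the number of molecules behind each value are unknown.

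**Figure D5:**
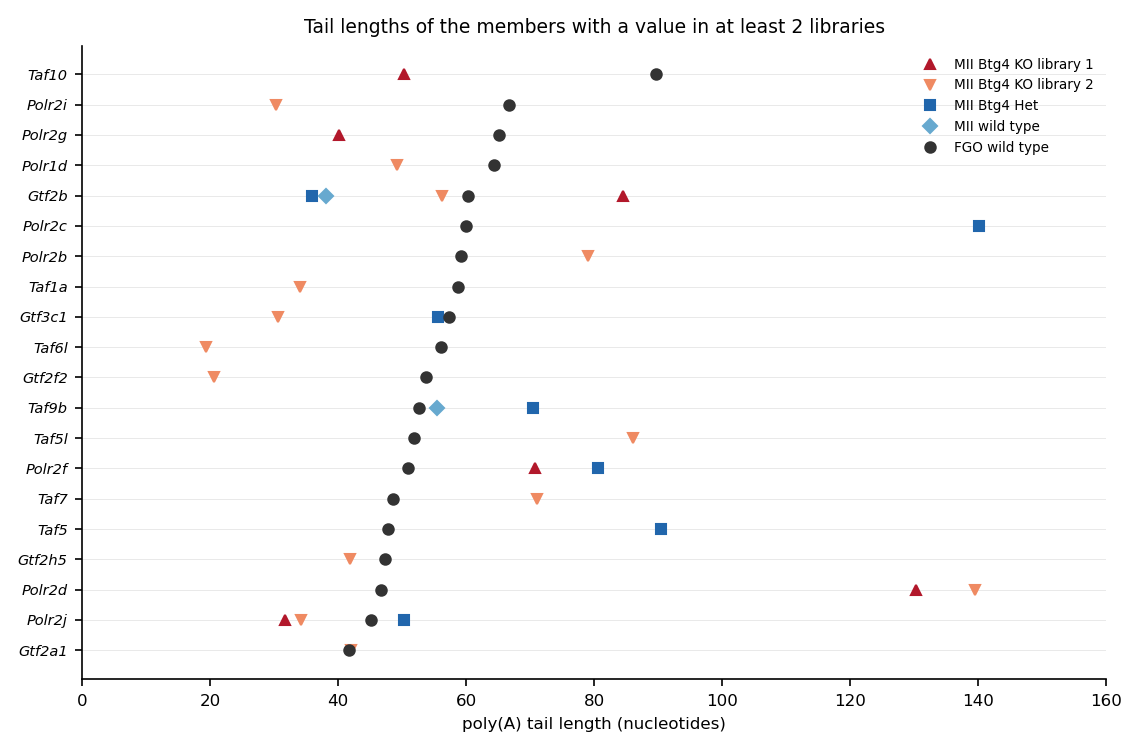
Poly(A) tail length in nucleotides of the 20 members with a value in at least 2 of the 5 libraries, ordered by their FGO value; each symbol is the value of 1 library. Polr2d is at 130 and 140 nucleotides in the KO libraries against 46.7 in FGO, and Polr2c at 140 in Het against 60.0 in FGO.

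Only Gtf2b had a value in all 5 libraries: 84.6 and 56.3 nucleotides in KO, 35.8 in Het, 38.2 in wild-type MII and 60.3 in FGO. Both KO values lay above the Het and wild-type MII values. Polr2j had 31.7 and 34.2 nucleotides in KO, against 50.3 in Het, and 45.1 in FGO. These 2 were the members that could be tested, and neither passed: the difference was 34.6 ± 17.6 nucleotides for Gtf2b (adjusted p = 0.381) and -17.3 ± 7.13 for Polr2j (adjusted p = 0.336), in limma with Het as a single library assumed to vary as the KO pair. None of 272 genes passed; at an unadjusted p of 0.05, 2.94% were longer in KO and 15.1% shorter.

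KO MII oocytes and wild-type FGO differ in both genotype and stage, so a tail difference between them cannot be assigned to either. Polr2d had 130 and 140 nucleotides in the KO libraries and 46.7 in FGO, with no value in the Het and wild-type MII libraries. In the authors' deposited table, the merged column for wild-type and Het MII gave 65.6 nucleotides for Polr2d and the merged KO column 137. Taf5l, which also rose in KO mRNA, had 86.1 nucleotides in KO library 2 and 51.8 in FGO, and Polr2b had 79.0 in KO library 2 and 59.2 in FGO. Taf7 had 71.0 nucleotides in KO library 2 and 48.6 in FGO. In 9 members with a value in 1 KO library, the KO tail was shorter than the FGO tail. These include Polr1d, with 49.2 nucleotides in KO and 64.4 in FGO, and Gtf2h5, with 41.8 in KO and 47.3 in FGO, both of which rose in KO mRNA. The widest gaps were those of Taf10, with 50.2 nucleotides in KO and 89.6 in FGO, Taf6l, with 19.3 in KO and 56.1 in FGO, and Polr2i, with 30.3 in KO and 66.8 in FGO. Gtf2f2 had 20.6 in KO and 53.8 in FGO, Gtf3c1 30.7 in KO and 57.4 in FGO, Polr2g 40.1 in KO and 65.2 in FGO, and Taf1a 34.0 in KO and 58.7 in FGO. Gtf2a1 had 42.0 nucleotides in KO library 2 and 41.6 in FGO. Against FGO, KO library 2 was longer for 5 of 14 members and shorter for 9, and KO library 1 longer for 3 of 6. Of all genes, KO library 2 was longer for 486 of 1356 and shorter for 870, with a median difference of -12.5 nucleotides, and KO library 1 longer for 273 of 837, with a median of -15.6. The members' median was -8.2 nucleotides in KO library 2, and shorter tails were about as frequent among them as among all genes. Against Het, of the same stage, each KO library was longer for 1 of 3 members. Of all genes, KO library 1 was longer than Het for 125 of 308 and KO library 2 for 152 of 396.

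Het and FGO could be set side by side for 7 members, of which 5 were longer in Het, with a median difference of 17.9 nucleotides. For 580 genes the median difference was 20.5. The wild-type MII library differed from the same FGO library in the other direction. It was longer for 94 of 224 genes and shorter for 130, with a median difference of -7.6 nucleotides, and longer for 1 of 2 members. Polr2c had 140 nucleotides in Het and 60.0 in FGO, Taf5 had 90.5 in Het and 47.7 in FGO, Polr2f 80.6 in Het and 51.0 in FGO (70.8 in KO library 1), and Taf9b 70.5 in Het and 52.6 in FGO, with 55.4 in wild-type MII. The merged wild-type and Het column of the authors' deposited table gave 96.2 nucleotides for Polr2c and 129 for Taf5. Gtf3c1 had 55.6 nucleotides in Het and 57.4 in FGO. With 1 library a group except KO, these differences have no replicate check.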

How the data were processed

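The members, gene lists and comparisons were chosen with earlier results of these data known. FPKM values were used as the authors deposited them; per the submitters' processing notes Trim Galore 0.4.2, cutadapt 1.14, Bowtie2 2.2.2, STAR 2.5.3a and Cufflinks 2.2.1 were used, with no role given, and mm9 and hg19 named as builds. Tail lengths (nucleotides) were deposited per gene and library. The 231 exact repeats in the Btg4 table were dropped. Of 105 samples in the labels, 53 had values in the 3 tables used and 52 were not analysed here. Genes averaging at least 1 FPKM in the libraries of a fit were tested with limma 3.58.1 (R 4.3.3, trended eBayes) on log2(FPKM + 1), with Benjamini-Hochberg adjustment over all genes; the script was tested on simulated data. Python 3.11.15 with pandas 2.3.3 did the rest. Nothing in the labels says that libraries of a group came from separate animals, so p-values measure the spread between libraries. Deviations of footprint libraries with the same number in KO and Het correlated across genes (r = 0.255, 0.422 and 0.162). The main fits and their p-values took the libraries as unpaired. The pairing by number, which comes from the data and not from the labels, was tried only as a block among the alternatives.

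Relative depth came from values under 12 reads; 78.3% of those in single oocytes and 56.0% in Btg4 footprints were whole multiples of 1 read within 0.03 reads, and reads are given only for members with 8 or more such values, 80% of them whole. Named members were those past the threshold, the 8 highest and 8 lowest stage ratios, the paralog pairs, Polr2a and members with 2 or more tail values; related genes were the 5 with the largest change per list and direction. Alternatives tried were another pseudocount, no filter, scalings, the block and left-out libraries or oocytes. Median scaling used genes above 0 in at least 30 of 38 oocytes. Values of 1 member are not reported here or drawn, and it is counted in the totals.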

Additional observations from a re-analysis of the deposited data

How the results depend on the processing

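In mRNA, 14 members rose and 0 fell; under median scaling 9 rose, and with no filter on low values (adjustment over 15509 genes) 6 rose, all genes giving 1039 and 555 against 1677. Quantile normalization gave 1 member that fell, Polr2c. All genes that fell numbered 55, against 656 under median scaling and 698 under quantile normalization. The numbers of the mRNA libraries pair only 2 libraries a genotype (same-number r = 0.627); with a replicate block 25 members rose and 10 fell (all genes 3033 and 1553), Polr2c (adjusted p = 0.0124 in limma) and Taf13 (0.0457) among the 10. Leaving out 1 mRNA library gave 11 to 17 members that rose and 0 to 1 that fell (Gtf3c2). In footprints, 5 members rose; pseudocount 0.1 and quantile normalization each gave 3 (without Gtf2e2 and Gtf2h2, and without Gtf2e2 and Polr3gl), and leaving out 1 library 0 to 6. Median scaling gave 1 that fell, Polr2g. Without both libraries numbered 2, chosen after seeing the data, 0 members and 0 of all genes rose, against 274 genes with all libraries. The replicate block gave 6 members that rose; beyond Polr3gl, Gtf2h5 and Taf7 it changed no member's call. In translational efficiency 0 members passed; a minimum of 5 FPKM gave 1 (Polr2b), and leaving out 1 library 0 to 3. With weights per assay, chosen after seeing the data, 0 passed. All genes called higher in footprints numbered 274, against 177 with pseudocount 0.1, 149 under quantile normalization and 145 with no filter; those called lower numbered 28, against 47 under median scaling and 12 with no filter. In translational efficiency 63 genes were higher and 33 lower, against 27 and 22 with the block and 158 and 110 with weights per assay. No called member changed direction under any setting run. Polr2k, Polr1d, Taf1b, Gtf2e2 and Gtf2h5 kept their mRNA call under all 9. For stage ratios, no setting turned a member past 2-fold to the other sign. Low depth in MII oocytes limits statements on members at 0 there; tail lengths have no recorded depth.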
